A study of Homo sapiens with 14 samples.

Results

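The 10 genes of the G1 checkpoint were followed through every comparison of the series: the D cyclins CCND1 and CCND3, the kinases CDK4, CDK6 and CDK2, the inhibitors CDKN1B, CDKN1C and CDKN2C, and the pocket proteins RB1 and RBL1. They were picked by gene name, with earlier results of these data known, so a count of members called describes these 10 genes only. Each had 1 row in every count table, 10 of 57905 genes in the largest table. All 10 passed the filter on low counts in every comparison. The cells were 22Rv1, an established human prostate cancer line, sequenced as 14 RNA libraries in 7 groups of 2. The first pair of groups had received a lentivirus against FOXA1 (shFOXA1) or a control lentivirus (shCtrl). A second set of cells expressed FOXA1 fused to a dTAG degron, a tag that lets a small molecule send the protein to the proteasome, and was collected at 0 h, 1 h and 24 h. The last pair, labelled R219S and WT, carried the degron fusion too, and R219S had in addition a mutation at residue 219 of FOXA1. The labels do not say whether the R219S and WT cells were given the degrader or its DMSO vehicle, nor whether any line was a single clone. In the titles of the shCtrl libraries the line is spelled 22Rv2, and their other fields have 22Rv1.

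In G1, D cyclins bind CDK4 or CDK6 and start the phosphorylation of the pocket proteins RB1, RBL1 and RBL2, which CDK2 with E or A cyclins completes. Phosphorylated pocket proteins release E2F factors, and the E2F targets that open S phase are then transcribed. CDKN2C (p18) binds CDK4 and CDK6, while CDKN1B (p27) and CDKN1C (p57) bind cyclin-CDK complexes more widely. FOXA1 is a pioneer factor that opens chromatin for the androgen receptor in luminal prostate cells. In androgen-dependent prostate cancer cells, androgen can drive the step from G1 into S phase.

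FOXA1 mRNA itself was 298 and 305 counts-per-million (CPM) in shFOXA1, against 402 and 434 CPM in shCtrl, a log2 fold change of -0.47 ± 0.062 (SE, 2 libraries per group; edgeR adjusted p = 0.000275). At 0, 1 and 24 h of the dTAG series it was 171 and 168, then 170.0 and 168, then 203 and 195 CPM, and the 24 h value was above 0 h (0.23 ± 0.039, adjusted p = 7.60e-06); the degron acts on the protein, which was not measured here. R219S libraries held 703 and 681 CPM and WT libraries 1018 and 1032 CPM (-0.57 ± 0.036, adjusted p = 1.28e-45). Library totals ran from 21.56 to 38.47 M counts. Summed luminal markers ran from 2871 to 8169 CPM over the libraries. Basal markers reached at most 0.773, endothelial at most 0.398 and leukocyte at most 1.47 CPM. TP63 and KRT5 were at 0 in 9 libraries each and KRT14 in 1. CDH5 was at 0 in 12 libraries, KDR in 10 and VWF in 3, and PECAM1 was not matched. CD3E was at 0 in 12 libraries and PTPRC in 1, while CD14 and LYZ were detected in all 14. The luminal sum lay between 3591 and 3815 CPM in shFOXA1 and between 2871 and 2947 CPM in shCtrl, at 4550 to 4568, 4620 to 4656 and 4952 to 5101 CPM at 0, 1 and 24 h, and at 7960 to 8169 CPM in R219S and 7339 to 7344 CPM in WT, and its part in the results was not tested. Counts varied within groups more than Poisson counting allows, with a chi-square per degree of freedom of 11.8 in shFOXA1, 4.04 in shCtrl and 2.04 to 3.04 elsewhere. Whether replicates came from separate cultures is not stated, so p-values reflect the spread of these libraries alone, which may be technical.

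**Figure D1:**
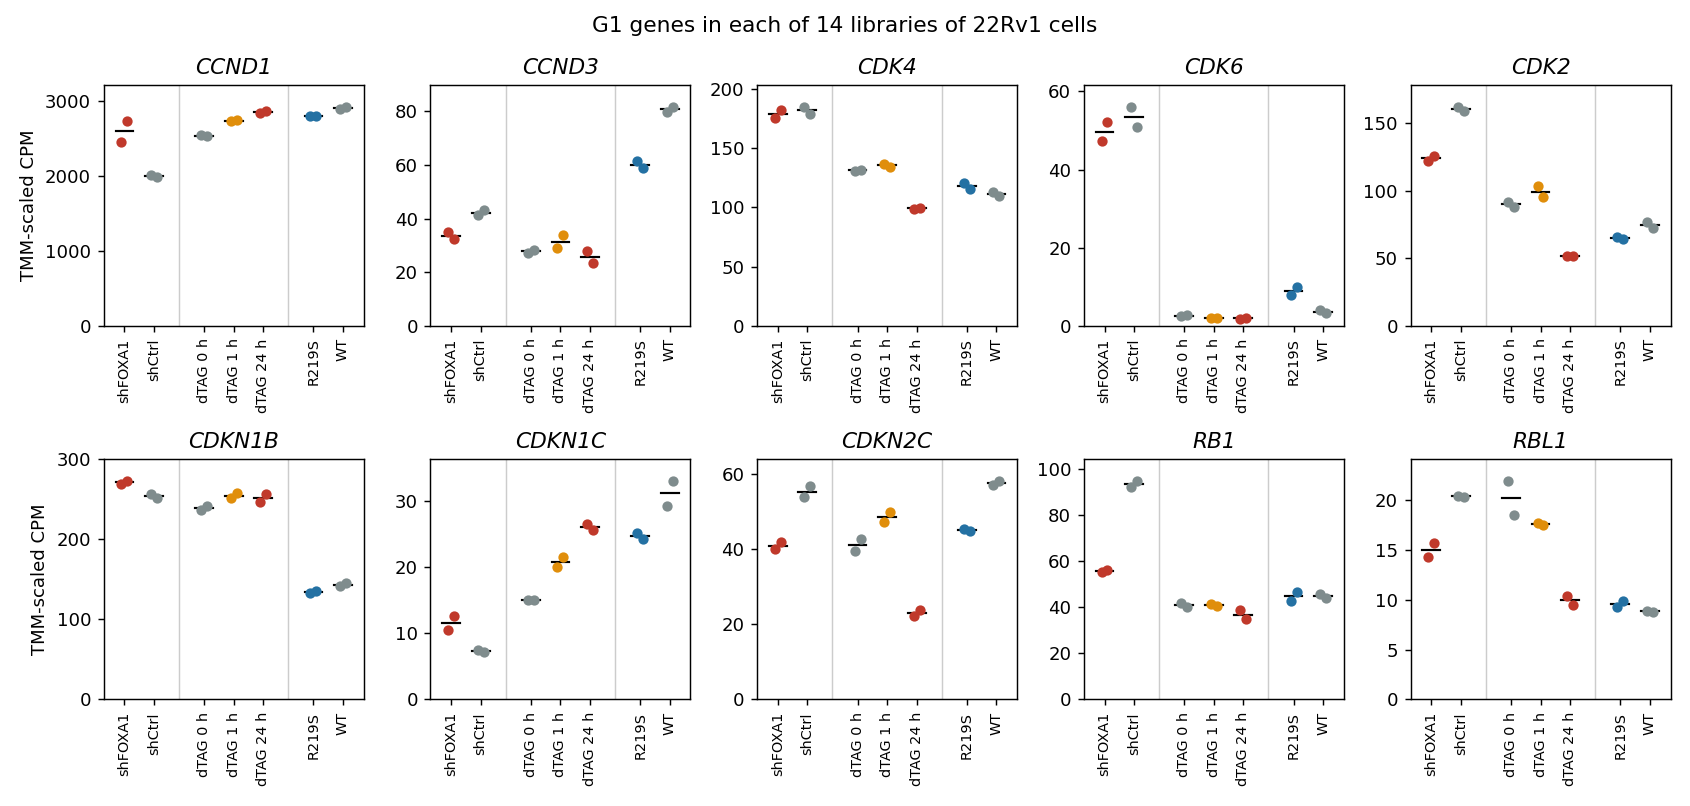
TMM-scaled CPM of each gene (linear axis from 0, its own scale in each panel) by group, with the 3 separately made tables divided by grey lines; points are the 2 libraries of a group and short black lines their mean. RB1 is lower in both shFOXA1 libraries (55.3 and 56.1 CPM) than in both shCtrl libraries (92.1 and 94.9 CPM).

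Knockdown lowered more of the genes than it raised. In shFOXA1 against shCtrl, CCND1 and CDKN1C rose, and RB1, RBL1, CDKN2C, CDK2 and CCND3 fell: 7 of 10, against 23.6% of the 19128 genes tested (11.3% higher, 12.3% lower). The median log2 fold change of the 10 was -0.22, against 0.0100 over all genes tested. The summed level of 5 fibroblast markers was 24.02 and 31.2 CPM in shFOXA1 and 20.5 and 18.6 CPM in shCtrl. Of these markers, COL3A1 stood at 5.82 and 14.1 CPM in shFOXA1 and at 1.44 and 1.77 CPM in shCtrl. DCN was also higher in both shFOXA1 libraries. COL1A1 (16.2 and 14.1 CPM, against 16.8 and 15.7 CPM in shCtrl), LUM and PDGFRB overlapped between the groups. The part of this sum in these results was not tested. In bulk RNA, fewer cells with a transcript and less transcript per cell cannot be told apart. RBL1 was not called without shCtrl replicate 1 (adjusted p = 0.0562) or replicate 2 (0.0692; range over 10 alternatives 4.11e-05 to 0.0692), and CCND3 was not called without shCtrl replicate 2 (0.137; range 2.33e-05 to 0.137).

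The changes called in the first hour were small increases. The 1 h and 24 h changes rest on the same pair of 0 h libraries. In them FOS averaged 406 CPM and EGR1 416 CPM, against 8.52 and 22.2 CPM at 1 h and 8.87 and 24.2 CPM at 24 h. JUN differed less, at 360, 345 and 314 CPM. The part of this 0 h state in the member changes was not tested. At 1 h against 0 h, CCND1, CCND3, CDK2, CDKN1B, CDKN1C and CDKN2C rose and none of the 10 was called lower, 6 of 10, against 19.8% of the 19397 genes tested (10.7% higher, 9.12% lower). CDKN1C rose by 0.46 on the log2 scale, and the other 5 by 0.088 to 0.24. The median of the 10 was 0.099, against 0.00074 over all genes tested. CCND3 was not called without 0 h replicate 1 (adjusted p = 0.167) or 1 h replicate 2 (0.721), CDK2 not without 0 h replicate 2 (0.0543) or 1 h replicate 1 (0.418), and CDKN1B not without 0 h replicate 1 (0.0608), 1 h replicate 1 (0.144) or 1 h replicate 2 (0.393). With DESeq2 these 3 were not called either (adjusted p = 0.240, 0.0830 and 0.115 for CCND3, CDK2 and CDKN1B; ranges over 11 alternatives 0.00801 to 0.721, 0.000603 to 0.418 and 0.00340 to 0.393), while CCND1, CDKN1C and CDKN2C passed in all 11.

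At 24 h more of the genes were below 0 h than above. CCND1 and CDKN1C were higher than at 0 h, while RBL1, CDKN2C, CDK2, CDK4 and RB1 were lower, 7 of 10, against 46.9% of the 19607 genes tested (22.1% higher, 24.8% lower). The median of the 10 was -0.26, against 0.0056 over all genes tested. CDK2 and CDKN2C were called higher at 1 h and lower at 24 h, both against the same 0 h libraries. From 1 h to 24 h, in the joint fit of the 6 dTAG libraries, 1 member was called higher (CDKN1C) and 6 lower (CDKN2C, CDK2, RBL1, CDK4, CCND3 and RB1), against 45.7% of 20027 genes (21.2% higher, 24.5% lower). CCND3 lost this call without 1 h replicate 2 (adjusted p = 0.128; range over 9 alternatives 3.79e-06 to 0.128) or 24 h replicate 2 (0.0892), and RB1 without 1 h replicate 1 (0.168; range 0.00273 to 0.404), 1 h replicate 2 (0.0712) or 24 h replicate 2 (0.404). CCND1 from 1 h to 24 h (0.059 ± 0.026, adjusted p = 0.0581) was called higher in 5 of the 9 alternatives, namely RLE scaling, the 1 CPM filter, the replicate block and without either 0 h library (adjusted p over the 9 from 0.0212 to 0.292). RB1 at 24 h was not called without 0 h replicate 1 (adjusted p = 0.174), 0 h replicate 2 (0.0550) or 24 h replicate 2 (0.467), nor with DESeq2 (0.169) or a correction for GC content and length (0.982; range over 11 alternatives 0.00572 to 0.982).

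In R219S the share of members called was close to that of all genes. Against WT, CDK6 rose, and CCND3, CDKN2C, CDKN1C, CDK2 and CDKN1B fell, 6 of 10, against 62.1% of the 13990 genes tested (30.5% higher, 31.6% lower). The median of the 10 was -0.076, against 0.0034 over all genes tested. CDKN1B was not called without R219S replicate 1 (adjusted p = 0.225) or 2 (0.0895) or WT replicate 2 (0.198), with DESeq2 (0.113) or with the replicate number as a block (0.0719; range over 10 alternatives 0.0331 to 0.225). The summed level of the 5 fibroblast markers was 508 and 520 CPM in R219S and 224 and 215 CPM in WT, with COL3A1 at 276 and 281 CPM in R219S and 7.03 and 5.85 CPM in WT, and COL1A1 at 13.5 and 13.5 CPM in R219S and 25.2 and 24.99 CPM in WT; its part in these results was not tested.

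**Figure D2:**
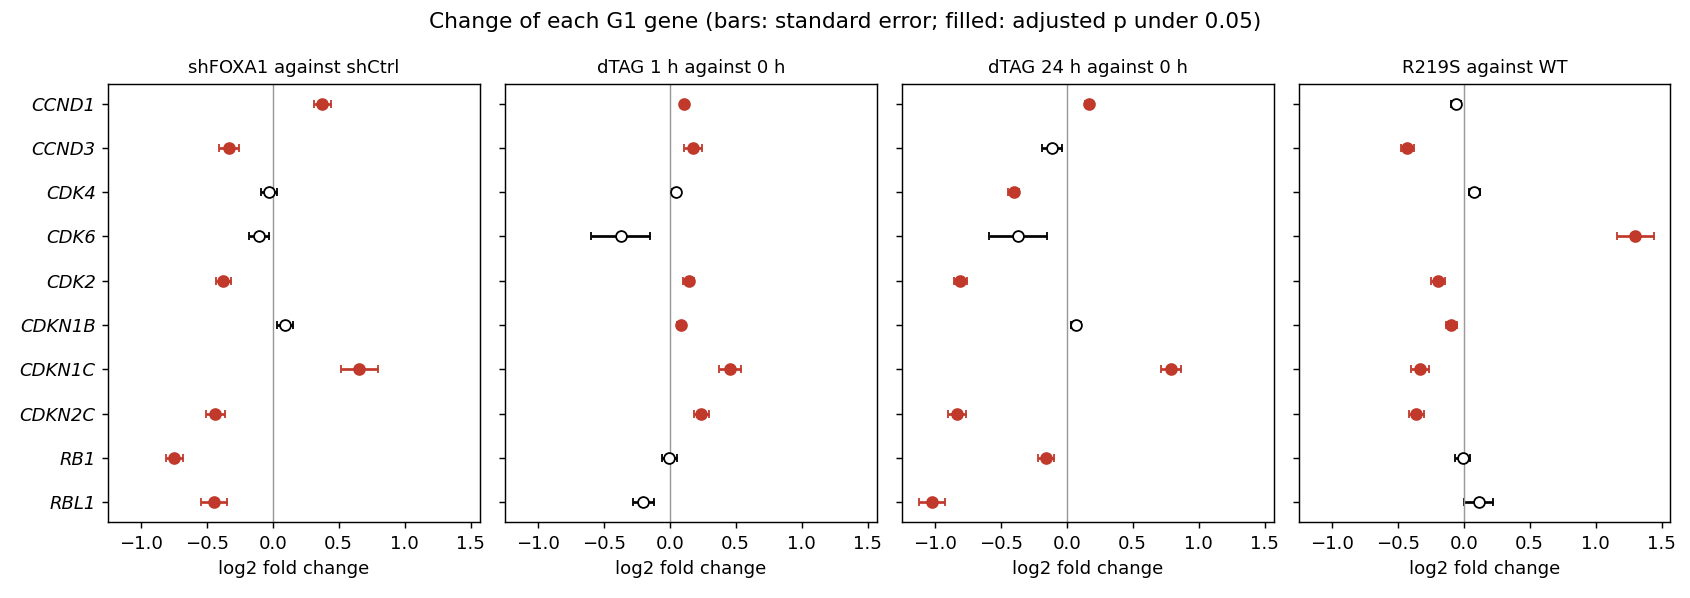
Log2 fold change of each gene in the 4 comparisons, with bars of 1 standard error; filled points passed an adjusted p of 0.05 and open points did not. RB1 is lowest in the knockdown (-0.75), RBL1 at 24 h (-1.02), and CDK6 stands above 0 in R219S (1.30).

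Among the D cyclins, CCND1 was by far the more abundant. Per kilobase of exon it made up 97.0% to 99.1% of the D cyclin level over all libraries, CCND3 made up 0.904% to 3.03%, and CCND2 was at most 0.0425 CPM per kb. CCND1 stood at 2459 and 2738 CPM in shFOXA1 and at 2018 and 1984 CPM in shCtrl. Both knockdown libraries lay above both controls, a log2 change of 0.38 ± 0.065 (adjusted p = 0.00147). At 0, 1 and 24 h it stood at 2550 and 2526, 2732 and 2747, and 2840 and 2865 CPM. The 3 times did not overlap, and the changes against 0 h were 0.11 ± 0.023 at 1 h (adjusted p = 0.000173) and 0.17 ± 0.031 at 24 h (3.69e-05). The 2 R219S libraries had 2795 and 2793 CPM and the WT libraries 2894 and 2922 CPM, without overlap but not called (-0.058 ± 0.034, adjusted p = 0.135), except with the GC and length correction (0.0247; range over 10 alternatives 0.0247 to 0.411). LTO1, a neighbour on the opposite strand, shares 11.3% of the exon bases of CCND1. It was called higher in shFOXA1 (0.29), at 1 h (0.14) and at 24 h (0.35). LTO1 was not matched in the R219S and WT libraries, so it has no value there. The strand setting of the counting is not given in the sources used here.

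CCND3, the minor D cyclin, stood at 34.8 and 32.2 CPM in shFOXA1 and at 41.2 and 43.1 CPM in shCtrl, a log2 change of -0.33 ± 0.079 (adjusted p = 0.0101). R219S cells had 61.3 and 58.9 CPM of CCND3 and WT cells 79.9 and 81.7 CPM (-0.43 ± 0.050, adjusted p = 6.83e-16). Neither pair of groups overlapped. In the dTAG series it had 27.3 and 28.2 CPM at 0 h, 29.03 and 33.8 CPM at 1 h, and 28.0 and 23.4 CPM at 24 h. Both 1 h libraries lay above 0 h (0.18 ± 0.066, adjusted p = 0.0469), while the first 24 h library lay between the 0 h libraries and the second below them. The change at 24 h (-0.11 ± 0.077, adjusted p = 0.256) was 0.016 without 24 h replicate 2 and -0.25, called, without 24 h replicate 1 (adjusted p = 0.0170, range over 11 alternatives 0.0170 to 0.910).

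Of the kinases, CDK4 was the most abundant, at 55.3% to 69.3% of the summed level per kilobase of CDK4, CDK2 and CDK6, and CDK2 made up 30.4% to 41.9%. CDK4 was 175 and 182 CPM in shFOXA1 and 185 and 179 CPM in shCtrl, overlapping groups with a log2 change of -0.026 ± 0.060 (adjusted p = 0.799). It stood at 131 and 131 CPM at 0 h, 137 and 134 CPM at 1 h, and 98.9 and 99.6 CPM at 24 h, a fall of 0.40 on the log2 scale (SE 0.041, adjusted p = 1.25e-09) at 24 h. Both 24 h libraries lay below all 4 earlier ones. CDK4 in R219S stood at 121 and 115 CPM and in WT at 113 and 109 CPM (0.082 ± 0.044, adjusted p = 0.0977). TSPAN31, on the opposite strand, shares 51.9% of the exon bases of CDK4, so reads could not be told apart between them without strand; it was not called in any comparison. Smaller opposite-strand overlaps were those of AC025162.1 with CDK2 (11.8% of its exon bases), AL136172.1 with RBL1 (3.63%) and AL513008.1 with CCND3 (0.609%).

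CDK2, which acts after the D cyclin kinases, fell in 3 comparisons. It was 122 and 126 CPM in shFOXA1 and 162 and 159 CPM in shCtrl (-0.37 ± 0.059, adjusted p = 0.000936). At 0 h it was 91.9 and 87.9 CPM, at 1 h 104 and 95.3 CPM, and at 24 h 51.5 and 51.3 CPM. The 1 h libraries were a little above 0 h (0.14 ± 0.041), and both 24 h libraries were far below every other dTAG library (-0.81 ± 0.048, adjusted p = 4.42e-15). R219S libraries had 65.8 and 64.5 CPM, against 76.7 and 72.1 CPM in WT (-0.19 ± 0.050, adjusted p = 0.000268).

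CDK6, the sister kinase of CDK4, rose in R219S and passed the test nowhere else. It was 47.3 and 52.2 CPM in shFOXA1 and 56.1 and 50.9 CPM in shCtrl, with the groups overlapping (-0.10 ± 0.078, adjusted p = 0.377). In the dTAG series it had 2.39 and 2.62 CPM at 0 h, 1.95 and 1.92 CPM at 1 h, and 1.77 and 2.10 CPM at 24 h, on 58 to 92 counts a library. Both later times lay below 0 h without being called (-0.37 ± 0.23, adjusted p = 0.274 at 1 h, and -0.37 ± 0.22, adjusted p = 0.177 at 24 h). With the mutation, CDK6 had 7.94 and 9.88 CPM in R219S libraries and 3.92 and 3.26 CPM in WT libraries, a log2 change of 1.30 ± 0.14 (adjusted p = 1.10e-18), higher in both R219S libraries and passing in all 10 alternatives. Its share of the 3 kinases per kilobase was 3.00% in shFOXA1 and 2.88% in shCtrl, 0.903% in R219S and 0.362% in WT, and between 0.156% and 0.239% at the dTAG times. These tables were made separately, and the difference in level between them was not tested.

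**Figure D3:**
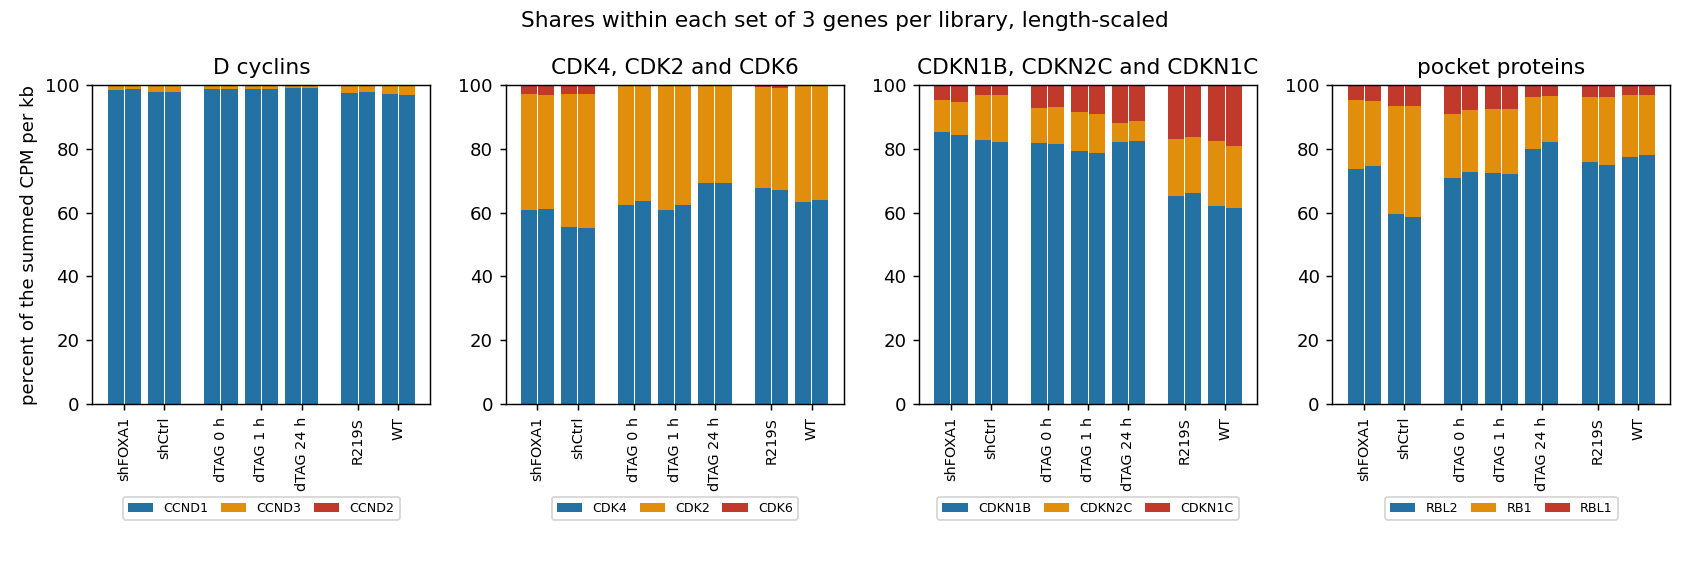
Percent of the summed CPM per kilobase of exon of the 3 genes named in each panel, with 1 stacked bar per library, grouped as labelled below the axis; other inhibitors, CDKN1A among them, are not in the sum. CCND1 and CDKN1B fill most of the bars of their panels, RB1 averages 21.1% of the pocket proteins in shFOXA1 and 34.5% in shCtrl, and RBL2 has the largest share of the pocket proteins in all 14 libraries.

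The inhibitor CDKN1B was the most abundant of the 3 inhibitors among the members at the RNA level, at 61.3% to 85.3% of their summed level per kilobase, and moved little. CDKN1A (p21), an inhibitor from another list that is not in this sum, stood above CDKN1B in all 14 libraries, at 72.5 to 173 CPM per kb, against 49.9 to 103 CPM per kb for CDKN1B. In shFOXA1 CDKN1B had 268 and 273 CPM, against 257 and 251 CPM in shCtrl (0.092 ± 0.058, adjusted p = 0.284), without overlap but not called. At 0, 1 and 24 h it had 236 and 242, 251 and 257, and 246 and 256 CPM, with changes against 0 h of 0.088 ± 0.031 at 1 h (adjusted p = 0.0308) and 0.072 ± 0.038 at 24 h (adjusted p = 0.118). The 24 h change was called with the replicate number as a block (0.0440) and with the GC and length correction (2.48e-05; range over 11 alternatives 2.48e-05 to 0.462). R219S libraries had 133 and 135 CPM and WT libraries 141 and 145 CPM (-0.094 ± 0.043, adjusted p = 0.0471). As background, the p27 protein is controlled largely by degradation, with SKP2 and CKS1B in the ligase that marks it, and no protein was measured here.

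CDKN1C was called in all 4 comparisons. In shFOXA1 it had 10.5 and 12.6 CPM, against 7.47 and 7.15 CPM in shCtrl (0.66 ± 0.14, adjusted p = 0.00465). Over 0, 1 and 24 h it was 15.1 and 15.0, 19.9 and 21.4, and 26.5 and 25.5 CPM, with no overlap between the times and changes against 0 h of 0.46 ± 0.082 at 1 h (adjusted p = 7.33e-06) and 0.79 ± 0.079 at 24 h (5.95e-10). The GC and length correction lowered the 1 h value to 0.27, still called. R219S went the other way, with 25.1 and 24.2 CPM against 29.2 and 33.0 CPM in WT (-0.33 ± 0.071, adjusted p = 1.20e-05). Across the 14 libraries, centred within each table, the genes most like CDKN1C were SEMA4C (Pearson r = 0.981), SLC27A1 (0.972) and DDR1 (0.969), of 12287 genes compared. These are descriptions: genes of 1 library share its depth. The 3 genes were also picked for moving with CDKN1C in these same libraries. Calls in its direction therefore follow from the choice and are no separate evidence. In shFOXA1 and at both dTAG times all 3 were called higher, and in R219S SEMA4C and SLC27A1 were called lower while DDR1 was not called (-0.080, adjusted p = 0.0559).

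CDKN2C was called in all 4 comparisons too, higher at 1 h and lower in the others. In shFOXA1 it had 39.8 and 41.8 CPM, against 53.7 and 56.7 CPM in shCtrl (-0.44 ± 0.073, adjusted p = 0.00123). Over 0, 1 and 24 h it was 39.5 and 42.5, 47.1 and 49.9, and 22.2 and 23.8 CPM, higher at 1 h (0.24 ± 0.054) and lower at 24 h (-0.83 ± 0.068, adjusted p = 7.24e-12). Both 24 h libraries lay well below both 0 h libraries. R219S libraries had 45.1 and 44.7 CPM of CDKN2C and WT libraries 57.1 and 58.1 CPM (-0.36 ± 0.056, adjusted p = 1.36e-09).

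Among the pocket proteins, RB1 had its largest change in the knockdown. It was 55.3 and 56.1 CPM in shFOXA1, against 92.1 and 94.9 CPM in shCtrl, a log2 change of -0.75 ± 0.064 (adjusted p = 1.77e-05). At 24 h of degradation it had 38.8 and 34.7 CPM, against 41.9 and 40.1 CPM at 0 h (-0.16 ± 0.063, adjusted p = 0.0419), and the libraries at 1 h had 41.4 and 40.4 CPM. RB1 in R219S had 42.9 and 46.4 CPM and in WT 45.9 and 43.8 CPM (-0.0068 ± 0.059, adjusted p = 0.927), with the groups overlapping. The knockdown fall passed in all 10 alternatives, between -0.77 and -0.66. RBL1 (p107), itself a known E2F target, was 14.3 and 15.6 CPM in shFOXA1, against 20.4 and 20.3 CPM in shCtrl (-0.44 ± 0.10, adjusted p = 0.00725). At 24 h it had 10.4 and 9.47 CPM, against 21.9 and 18.4 CPM at 0 h (-1.02 ± 0.098, adjusted p = 2.77e-10), with both 24 h libraries below both 1 h libraries (17.7 and 17.4 CPM). At 1 h it was not called (-0.20 ± 0.082, adjusted p = 0.0767), except without 0 h replicate 2 (-0.32, adjusted p = 0.00612); its adjusted p over the alternatives ran from 0.00612 to 0.730. RBL1 had 9.24 and 9.84 CPM in R219S and 8.87 and 8.78 CPM in WT (0.12 ± 0.11, adjusted p = 0.373). RBL2 (p130), a related gene from another list, was 59.0% to 80.9% of the 3 pocket proteins per kilobase in the group means and rose at 24 h (0.37) and in shFOXA1 (0.30), while it fell in R219S (-0.19).

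The degradation and knockdown changes were compared directly as the difference of the 2 changes. The RB1 change at 24 h lay above that in the knockdown (difference 0.60 ± 0.091, adjusted p = 4.69e-05). The 24 h changes of RBL1 (-0.56), CDK2 (-0.42), CDKN2C (-0.39), CDK4 (-0.36) and CCND1 (-0.20, adjusted p = 0.0497) lay below those in the knockdown. These were 6 of the 10, against 22.7% of 20795 genes (9.45% higher, 13.2% lower). The CCND1 difference was called in 1 of 11 alternatives (adjusted p from 5.56e-05 to 0.158). RBL1 was not called without 0 h replicate 1 (0.0749; range 0.000388 to 0.0749) or 24 h replicate 2 (0.0570), and CDKN2C not without 0 h replicate 2 (0.0557; range 0.000532 to 0.0557) or 24 h replicate 1 (0.0530). The differences for CDKN1C (0.14), CCND3 (0.23), CDK6 (-0.25) and CDKN1B (-0.0089) were not called. In tests added after the data were seen, the R219S change differed from the shFOXA1 change for 6 of the 10, against 41.6% of 13464 genes (19.5% higher, 22.1% lower), 3 in each direction. It differed from the 24 h change for 9 of the 10, against 56.0% of 13458 genes (30.0% higher, 25.9% lower). CDK6 lay above both (1.38 against shFOXA1, 1.66 against 24 h) and CDKN1C below both (-1.02 and -1.13).

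The promoters of RBL1, CDKN2C and CDK4 are shown because these 3 genes, of the 5 that fell at 24 h, had a window with an E2F-type word or CACGTG. Sequences are from RefSeq on GRCh38.p14, 250 bases before to 50 bases after an annotated start; 7 of the 10 genes had an entry, in 12 windows. Of the other 2 genes that fell, CDK2 had no entry. RB1 had 1 window (chr13:48476200-48476499, plus strand), in which none of the words searched stood. Any other start of RB1 had no window and was not searched, so its main promoter may not be covered. CACGTG also stood in a window of CDK6 (at 31), a gene not called at 24 h. The capitals mark the motifs found: TTTCGCGC and TTTGGCGC for RBL1 (at -26 and -16 from the start), GGCGGGAA for CDKN2C (at -132), and CACGTG for CDK4 (at -216, -196 and -101). RBL1 lies at chr20:37095948-37096247 on the minus strand, CDKN2C at chr1:50968456-50968755 on the plus strand (the second of its listed starts) and CDK4 at chr12:57752261-57752560 on the minus strand.
RBL1: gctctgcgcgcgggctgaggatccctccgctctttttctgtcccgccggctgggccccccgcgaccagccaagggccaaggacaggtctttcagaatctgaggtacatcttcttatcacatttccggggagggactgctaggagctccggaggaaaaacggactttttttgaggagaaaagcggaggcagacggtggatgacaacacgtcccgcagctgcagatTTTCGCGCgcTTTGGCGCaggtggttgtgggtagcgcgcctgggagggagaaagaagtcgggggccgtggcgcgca
CDKN2C: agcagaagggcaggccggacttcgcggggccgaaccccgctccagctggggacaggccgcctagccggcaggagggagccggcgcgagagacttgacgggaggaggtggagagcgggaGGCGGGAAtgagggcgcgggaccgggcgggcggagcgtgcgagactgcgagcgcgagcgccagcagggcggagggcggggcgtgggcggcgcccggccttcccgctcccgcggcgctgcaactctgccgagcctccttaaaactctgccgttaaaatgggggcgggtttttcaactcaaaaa
CDK4: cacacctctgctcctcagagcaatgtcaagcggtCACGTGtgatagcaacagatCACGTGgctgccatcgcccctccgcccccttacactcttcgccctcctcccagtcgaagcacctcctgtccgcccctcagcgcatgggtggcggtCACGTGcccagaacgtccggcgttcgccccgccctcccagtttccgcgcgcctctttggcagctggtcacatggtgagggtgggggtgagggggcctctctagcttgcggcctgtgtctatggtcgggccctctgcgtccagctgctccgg
Both strands were searched. At least 1 of the E2F-type words (TTTCCCGC, TTTGGCGC, TTTCGCGC, TTTGCCGC or GGCGGGAA) stood in 5.58% of 35116 promoters, and CACGTG in 7.26%; 2 of these words, TTTCGCGC and TTTGGCGC, stood in 0.515% and 0.652%. TTTCCCGC and GGCGGGAA can match the same site, since on opposite strands they overlap by all but 1 letter. The other 2 windows of CDKN2C held CACGTG and no E2F-type word, and the forkhead words TGTTTAC and TATTTAC, in 5.97% of promoters, stood in 1 window each of CCND3 and CDKN2C. The words were chosen after the values were seen, and a match is a description of these letters, not a bound site.

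Most E2F targets fell in the 2 comparisons in which RBL1 fell. Of 16 target genes of the G1/S switch, 15 fell in shFOXA1 (median -0.45; CDC6, which loads the replication helicase, -0.67) and all 16 at 24 h (median -1.64; CDC6 -2.50, RRM2 -2.40, GINS2 -2.39). At 1 h 4 of the 16 rose (TK1 0.20, CDT1 0.16, TYMS 0.13) and none was called lower; in R219S 2 rose (POLA1 0.50, MCM6 0.14) and 7 fell (RRM2 -0.39, RRM1 -0.27, CDT1 -0.24). The shares called were 93.8% in shFOXA1, against 23.6% of all genes tested, 25% at 1 h, against 19.8%, 100% at 24 h, against 46.9%, and 56.2% in R219S, against 62.1%. The R219S share was thus close to that of all genes.

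The other lists are read against the same shares of all genes called, 23.6% in shFOXA1, 19.8% at 1 h, 46.9% at 24 h and 62.1% in R219S. Of 10 E2F and DP factors, 4 fell and 2 rose in shFOXA1. At 24 h 8 fell and 1 rose (median -0.48, with E2F8 -2.05, E2F2 -2.01, E2F7 -1.99 and TFDP2 0.49). At 1 h 1 rose (E2F2 0.30), and in R219S 4 went in each direction (E2F4 0.30, E2F7 -0.70). The shares called were 60% in shFOXA1, 10% at 1 h, 90% at 24 h and 80% in R219S. Of 12 other tested cyclins, CDKs and inhibitors, 7 fell and 1 rose in shFOXA1 (CDKN2B -0.80, CDKN2A -0.52; CDKN1A, the p21 inhibitor, 0.73), and 11 fell and none rose at 24 h (CCNE2 -2.20, CCNH -1.17, CCNE1 -1.03). CDKN1A was lower at 24 h (-0.17). In R219S 2 of these 12 rose (CCNE1 0.36, CDC37 0.17) and 7 fell (CDKN2B -1.30, CCNE2 -0.71, CDKN2A -0.70), and at 1 h 4 rose (CDKN2D 0.40, CDC25A 0.40) and 2 fell (CCNE2 -0.65, CCNH -0.23). The shares called were 66.7% in shFOXA1, 50% at 1 h, 91.7% at 24 h and 75% in R219S.

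Of 8 RBL2 and DREAM/MuvB genes 3 fell and 1 rose in shFOXA1, and 5 fell and 3 rose at 24 h (MYBL2, the B-Myb factor of the later cell cycle, -2.24; LIN37 0.74). At 1 h 1 rose (LIN37 0.41), and in R219S 1 rose (DYRK1A 0.21) and 4 fell (MYBL2 -0.51). For this list 50% were called in shFOXA1 and 100% at 24 h. The 12.5% at 1 h, 1 gene of 8, and the 62.5% in R219S were near the share of all genes. Of 16 upstream transcription factors, 6 fell and none rose at 1 h (FOS -5.58, EGR1 -4.23, KLF5 -0.86), and 6 fell and 6 rose at 24 h (FOS -5.51, EGR1 -4.10, FOXM1 -0.94; FOXO1 1.33, FOXO4 0.87, FOXO3 0.50). In shFOXA1 5 rose (STAT5A 0.68, MYC 0.59, JUN 0.34) and 3 fell (FOXM1 -0.78, EGR1 -0.47, KLF5 -0.30), and in R219S 5 rose (KLF5 0.93, KLF6 0.74, MYC 0.64) and 6 fell (KLF4 -1.30). Of these factors 50% were called in shFOXA1, 37.5% at 1 h, 75% at 24 h and 68.8% in R219S. Of 13 genes of D cyclin and p27 turnover, 4 rose and 7 fell at 24 h (CKS1B -0.86, SKP2 -0.69, USP2 -0.65; FBXO31 0.27), 1 rose and 2 fell in shFOXA1 (FBXW7 0.34; USP2 -0.90, CKS1B -0.22), 2 fell at 1 h (FBXW7 -0.18, GSK3B -0.18), and 4 rose and 2 fell in R219S (CUL4A 0.34; CUL4B -0.40). In this list 84.6% were called at 24 h. The 23.1% in shFOXA1 and the 15.4% at 1 h, 2 genes of 13, were near the share of all genes. The 46.2% in R219S, 6 genes of 13, was below it.

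**Figure D4:**
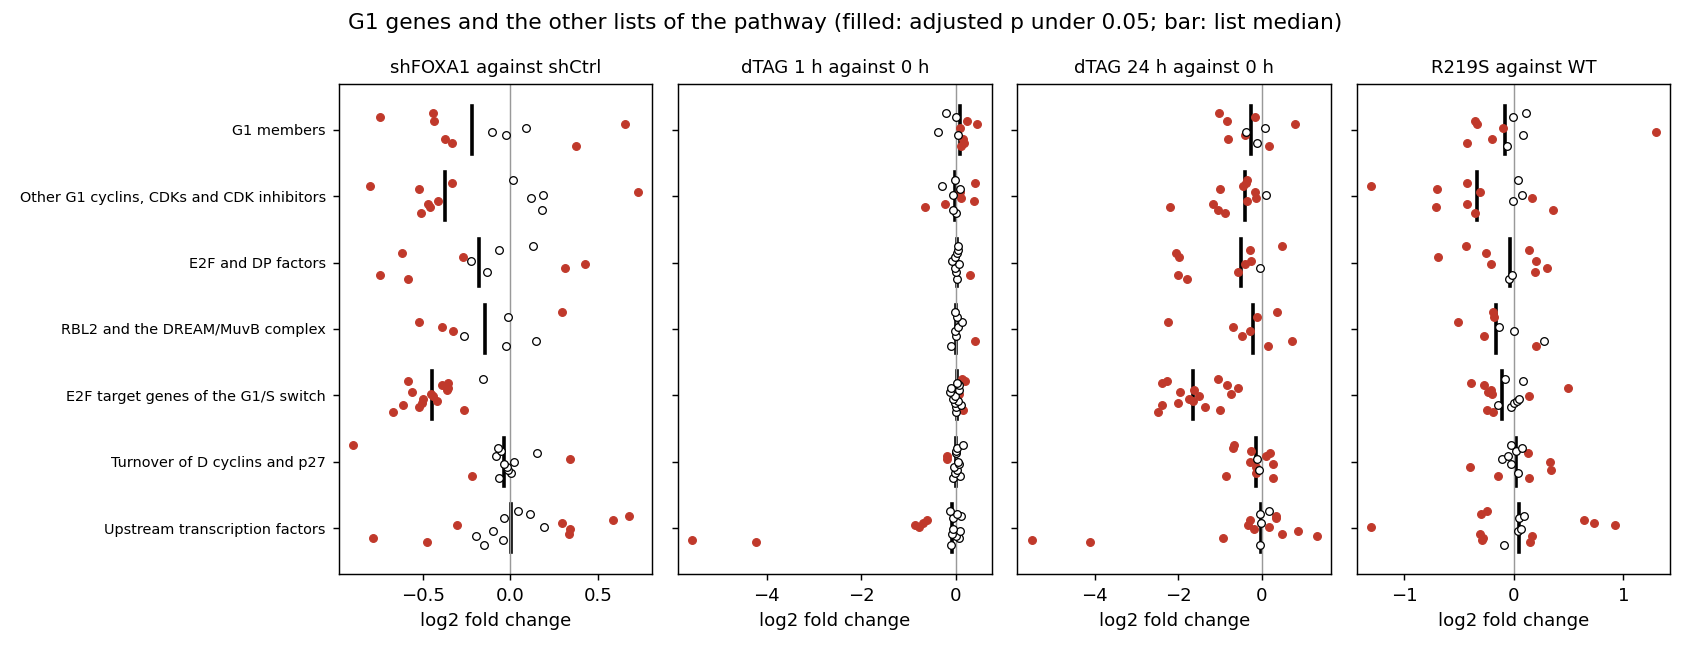
Log2 fold changes of every tested gene in the 10 members and the related lists, by comparison; points are genes, filled where the adjusted p was under 0.05, black bars are list medians, and each panel has its own axis range. The E2F targets lie below 0 in shFOXA1 and further below at 24 h, with medians of -0.45 and -1.64.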

How the data were processed

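The authors deposited raw read counts per gene; per the submitters' processing notes these came from STAR and featureCounts on hg19, and DESeq2 is named too, with no versions, annotation or strand setting. Both dTAG tables held the same 0 h counts. Groups came from the labels. For each comparison its 4 libraries were fitted alone, using edgeR 4.0.16 (R 4.3.3): filterByExpr, TMM, estimateDisp, robust glmQLFit and the quasi-likelihood F test, with calls at an adjusted p (Benjamini-Hochberg, all tested genes) under 0.05. Standard errors are approximate, from the change and F. Counts-per-million (CPM) are TMM-scaled within a table; lengths are GENCODE 29 exon unions on GRCh38, so hg19 coordinates are not given. Ensembl identifiers were matched to symbols (51996 of 57905 in the dTAG tables). Columns not used numbered 0. Depth was 21.56 to 38.47 M counts. The fits were run on simulated counts with changes larger than most member changes here, so recovery of small changes was not tested. DESeq2 1.42.0, RLE scaling, 2 other filters, a GC and length correction, the replicate number as a block and each library left out were alternatives. Members and lists were chosen with earlier results of these data known. All 10 members, FOXA1, up to 3 called genes per list and direction with the largest change, and the 3 genes most like CDKN1C are named; other names, such as LTO1 and TSPAN31, were added after their values were seen.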

Additional observations from a re-analysis of the deposited data

Results flagged for a closer look

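Differences between the changes of 2 perturbations were tested as interaction terms with edgeR, and the values are differences of log2 fold changes. Comparisons with shFOXA1 share its libraries, those with 24 h share the 0 h and 24 h libraries, and the tests with R219S were added after seeing the data. The 24 h change minus the shFOXA1 change was called for RB1 (0.60), RBL1 (-0.56), CDK2 (-0.42), CDKN2C (-0.39), CDK4 (-0.36) and CCND1 (-0.20). The CCND1 difference was called in 1 of 11 alternatives (adjusted p from 5.56e-05 to 0.158), and those of RBL1 (0.000388 to 0.0749) and CDKN2C (0.000532 to 0.0557) in 9 of 11 each. CCND3, not called, was called without shFOXA1 replicate 1 (0.29, adjusted p = 0.0497; range 0.0497 to 0.686).

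The R219S change minus the shFOXA1 change was called for 6 of the 10 genes, against 41.6% of 13464 genes: CDK6 (1.38), RB1 (0.72) and RBL1 (0.54) were above, and CDKN1C (-1.02), CCND1 (-0.46) and CDKN1B (-0.21) below. CDKN1B was not called without R219S replicate 1 or 2, WT replicate 2 or shCtrl replicate 2 (adjusted p from 0.00284 to 0.0829 over 11 alternatives), and CDK2, not called, was called without shFOXA1 replicate 2 (0.18, adjusted p = 0.0342; range 0.0342 to 0.332). RB1 was thus lower in shFOXA1 than in shCtrl while R219S and WT overlapped, and CDKN1C was higher in shFOXA1 and lower in R219S, each against its control.

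The R219S change minus the 24 h change was called for 9 of the 10, against 56.0% of 13458 genes. CDK6 (1.66), RBL1 (1.13), CDK2 (0.60), CDK4 (0.48) and CDKN2C (0.47) were above, and CDKN1C (-1.13), CCND3 (-0.32), CCND1 (-0.23) and CDKN1B (-0.17) below. CCND3 was not called without 24 h replicate 1 (adjusted p = 0.0628, range 5.12e-06 to 0.0628). The tables were made separately, and levels were not tested between them.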

How the results depend on the processing

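Of 840 alternative values for 80 member results, 759 kept direction and side of the threshold, 51 were no longer called, 12 became called and 18 changed sign, each of a value not called; the cause was not tested. The sign changed for RB1 at 1 h with no filter (0.0027) and for RB1 (0.075) and CDK4 (-0.0054) at 1 h and RB1 in R219S (0.015) with the GC and length correction. It also changed for CDK6 from 1 h to 24 h with RLE (0.0057) or a 1 CPM filter (0.012), and for CDKN1B in 24 h minus shFOXA1 with RLE (0.0011). Leaving out each library gave ranges crossing 0 for CDK4 in shFOXA1 (-0.051 to 0.0084), RB1 at 1 h (-0.034 to 0.029), CCND3 at 24 h (-0.25 to 0.016), RB1 in R219S (-0.067 to 0.048), CDK6 (-0.13 to 0.11) and CDKN1B (-0.047 to 0.0053) from 1 h to 24 h, and CDKN1B in 24 h minus shFOXA1 (-0.038 to 0.014).

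Over all genes, calls in shFOXA1 (4506) ran from 1713 (without shCtrl replicate 2) to 6793 (without shFOXA1 replicate 1), with 2421 without shCtrl replicate 1. Calls at 1 h (3850) numbered 2044 with DESeq2, which called 3 members in place of 6, and ran from 2232 (without 1 h replicate 2) to 3422 with a library left out, with 2428 without 1 h replicate 1. RLE against TMM moved the median change by at most 0.0033 in size.

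With the replicate number as a block, only CDKN1B changed its calls among the members in the 4 main comparisons. It was added at 24 h (edgeR adjusted p = 0.0440) and lost in R219S (0.0719). Same-numbered libraries did not deviate together (correlations from -0.0319 to 0.0429), and the number was not taken as pairing. With 2 libraries per group, changes near the spread between libraries could not be resolved, and CDK6 in the dTAG series rested on 58 to 92 counts a library.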
